A study of Rattus norvegicus with 15 samples.

Results

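Femurs of ovariectomised rats given an extract of Psoralea corylifolia Linn. (group P, 3 libraries) were compared with femurs of ovariectomised rats given saline (group OVX, 3 libraries). These 6 libraries were chosen by their titles from 15 libraries in 5 groups, all of polyadenylated RNA from femurs of female Sprague-Dawley (SD) rats that were 8 weeks old before surgery. Both groups had both ovaries removed and recovered for 6 weeks. P rats then received the extract at 2.4 g per kg per day for 8 weeks, while OVX rats received an equal volume of saline. The other 3 groups were Sham (surgery without removal of the ovaries, saline), J (ovariectomy, Juglans regia L. extract at 1.6 g per kg per day) and PJ (ovariectomy, the extracts together, at a daily 4.0 g per kg). Whether the libraries of a group come from different rats is not stated in the labels, and the p-values cover the spread between libraries.

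Loss of ovarian estrogen speeds up both the resorption of bone by osteoclasts and its formation by osteoblasts, with resorption ahead, and bone is lost. The seed of Psoralea corylifolia contains psoralen, isopsoralen, bakuchiol and flavonoids, some of which bind estrogen receptors weakly, and it is used in traditional medicine for bone loss. The labels do not say which parts of the femur were taken or whether marrow was removed. An intact femur holds mineralised bone, the marrow that forms red cells, platelets and white cells, marrow fat, vessels, nerves and remnants of cartilage, tendon and muscle. RNA of such a sample is a mixture, so fewer cells of a type and less RNA per cell cannot be told apart.

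Values are FPKM, read counts scaled to gene length and library size. Of 30454 genes in the files, 14200 had a mean FPKM of at least 1 over the 6 libraries and were tested. Each entry of the files counts as a gene. Some names in the lists of ribosomal proteins, DNA replication and oxidative phosphorylation have several entries, which are counted separately. A difference is P minus OVX of mean log2(FPKM + 1), given with its standard error (SE) and the adjusted p of limma (Benjamini-Hochberg over all genes tested, threshold 0.05). "Rose" and "fell" mean that this test was passed. FPKM values are always listed for libraries 1, 2 and 3 of a group in that order.

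Depth inferred from the values was 38.6 to 51.9 in units of 1000000 reads in the 6 libraries, and 19435 to 20484 genes were above 0. All 3 bone-cell marker sets (6 of 6 osteoblast, 4 of 4 osteocyte and 5 of 5 osteoclast markers) were above 0 in each of the 6 libraries. The library P 2 stood apart from P 1 and P 3. The correlation of log2(FPKM + 1) across genes, a description of these libraries, was 0.961 between P 1 and P 3 but 0.850 and 0.836 between P 2 and those 2, against 0.960 to 0.973 within OVX. P 2 correlated more with each of the Sham libraries (0.903, 0.877 and 0.872) than with P 1 or P 3, while P 1 and P 3 correlated less with each Sham library (0.778 to 0.907) than with each other. No independent check was made here of the treatment or dissection of P 2, so that values that include it rest on its label. Mitochondrial genes held 35.9% of the FPKM of P 2, against 17.6% and 11.2% in P 1 and P 3 and 12.0% to 14.1% in OVX. The 4 cartilage markers summed to 1094 FPKM in P 2, against 12.4 and 30.9 in P 1 and P 3 and 0.783 to 1.68 in OVX, where Acan was at 0 in OVX 3. The 4 skeletal muscle markers summed to 810.5 in P 2 and 29.9 and 1.53 in P 1 and P 3, and to 0.257 to 53.0 in OVX, with Myh7 at 0 in P 1 and OVX 1. Their part in the results was not tested, and counts are given with and without P 2. Where the number of called genes of a list moved by over 1.5 times under another setting, in either direction, most of these numbers are given too. The settings include array weights, which let libraries that depart from their group count for less, and fits of the OVX and P libraries alone. Each gene said to have risen or fallen also passed without P 2, unless its value without P 2 is printed.

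In P against OVX, 3385 of 14200 genes rose (23.8%) and 2207 fell (15.5%), together 39.4%, and the shares called in each gene list are read against these values. Without P 2, 3856 rose (27.2%) and 1920 fell (13.5%), and 3082 and 1790 genes were called in the same direction both ways. All 3 P libraries lay above all 3 OVX libraries in 4142 genes (29.2%) and below them in 3048 (21.5%). Many named genes were chosen by small p or large difference, so groups that do not overlap in them are no separate support. The same holds for genes with a mean FPKM under 1 in OVX, which passed the level filter through their P values. With median-ratio scaling in place of the library totals the split was 2929 higher to 3089 lower. That scaling moved the median difference of all genes by -0.12, from 0.10 to -0.02. Most tested members fell in the lists of cell division, red cells, platelets and neutrophil granules, and most rose in those of connective tissue and vessels, with and without P 2. Of the bone cell lists, most osteoblast genes rose, 9 of 17 osteoclast genes did, and 2 of 10 osteocyte genes did. In the bone cell lists and those of fat and cartilage, among others, the number of genes that rose moved by over 1.5 times with the libraries fitted. No skeletal muscle gene passed.

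**Figure D1:**
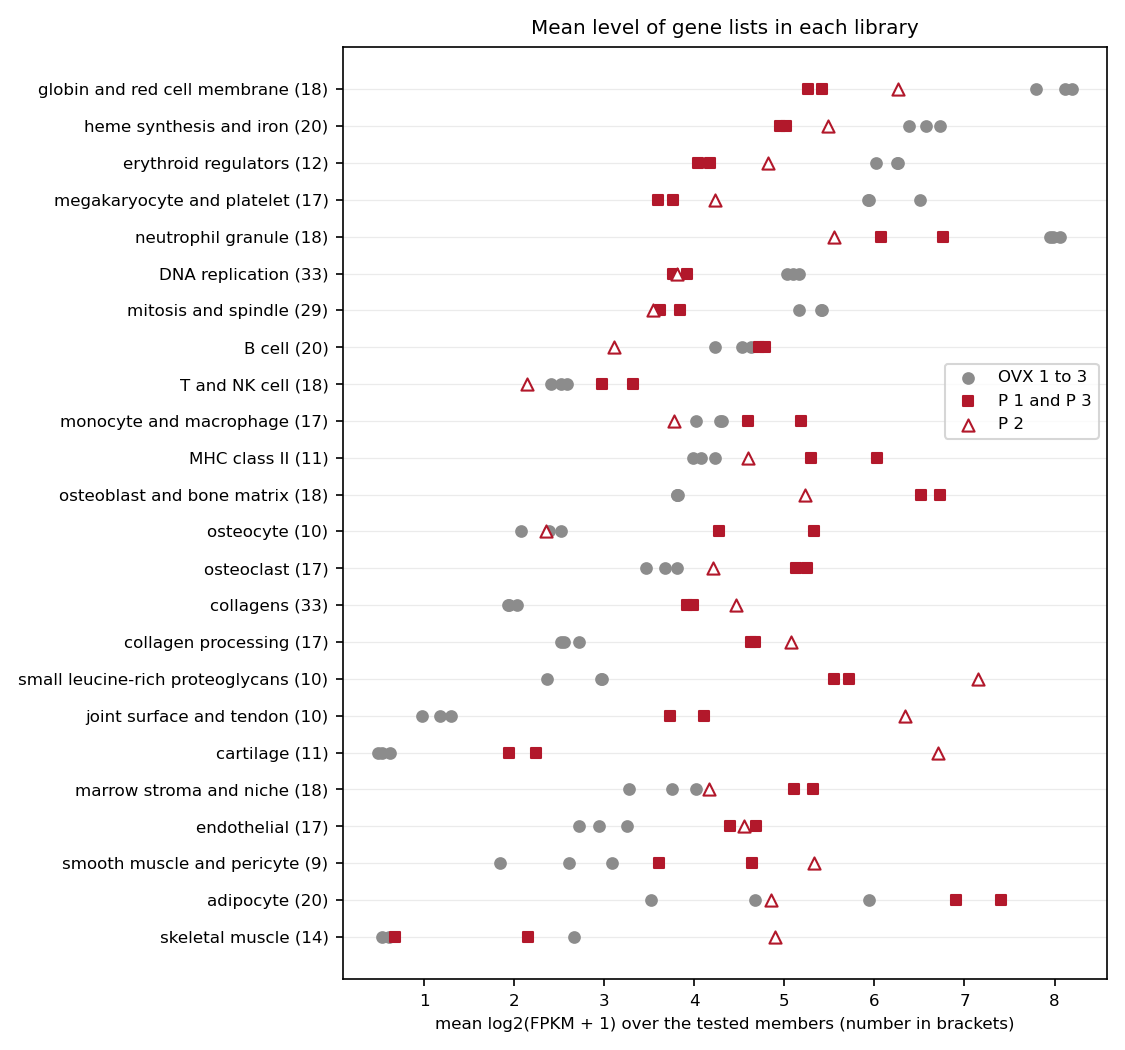
Mean log2(FPKM + 1) over the tested members of 24 gene lists (rows) in each OVX library (grey circles), P 1 and P 3 (red squares) and P 2 (open triangles). P 2 lies at 6.70 for cartilage and 4.90 for skeletal muscle, away from P 1 and P 3, but beside them at 3.54 for mitosis.

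The promoters of genes of cell division are shown first, since every tested gene of mitosis and the spindle fell. CCAAT, a box bound by the factor NF-Y, is a known element of such promoters, and AGATAA is the core of sites bound by GATA factors, the regulators of red cell and platelet genes. Promoter windows are the 250 bases before the gene start in RefSeq (rat assembly GRCr8), 5′ to 3′ on the strand of the gene. Capitals mark CCAAT on either strand (ATTGG is its reverse complement) in Cenpf, which codes for a kinetochore protein, in Kif4a, a chromosome motor, and in Cenpe, a motor that aligns chromosomes. In Sptb, which codes for the spectrin of the red cell membrane, they mark AGATAA.
Cenpf (chr13:103760887-103761136, minus strand): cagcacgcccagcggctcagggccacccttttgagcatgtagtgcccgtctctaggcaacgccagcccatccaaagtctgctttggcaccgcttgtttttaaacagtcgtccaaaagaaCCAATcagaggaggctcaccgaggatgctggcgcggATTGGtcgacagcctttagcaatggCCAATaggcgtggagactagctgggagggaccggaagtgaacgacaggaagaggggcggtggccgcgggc
Kif4a (chrX:69761633-69761882, plus strand): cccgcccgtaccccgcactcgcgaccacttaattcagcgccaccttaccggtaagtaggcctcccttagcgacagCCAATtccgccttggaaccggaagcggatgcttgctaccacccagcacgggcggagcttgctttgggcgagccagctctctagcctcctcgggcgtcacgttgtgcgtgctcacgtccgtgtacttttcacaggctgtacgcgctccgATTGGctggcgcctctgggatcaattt
Cenpe (chr2:226310807-226311056, plus strand): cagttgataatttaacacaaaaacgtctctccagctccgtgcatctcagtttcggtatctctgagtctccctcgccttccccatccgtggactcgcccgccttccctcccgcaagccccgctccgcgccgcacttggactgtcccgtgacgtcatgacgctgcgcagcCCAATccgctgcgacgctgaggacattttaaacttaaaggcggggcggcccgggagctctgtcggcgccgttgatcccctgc
Sptb (chr6:101170279-101170528, minus strand): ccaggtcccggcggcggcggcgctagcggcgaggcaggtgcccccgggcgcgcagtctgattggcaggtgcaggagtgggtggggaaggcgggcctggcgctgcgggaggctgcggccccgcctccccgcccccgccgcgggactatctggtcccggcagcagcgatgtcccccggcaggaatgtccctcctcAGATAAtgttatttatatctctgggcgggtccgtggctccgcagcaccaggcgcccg
Of the 29 mitosis genes tested, 25 had a promoter in the table, and 20 of them (80%) held CCAAT on either strand, against 35.7% of the 9969 promoters of tested genes and 34.3% of all 27457. At least 2 copies were found in 56% of the mitosis promoters and in 12.6% of those of tested genes. DNA replication genes held it in 16 of 26 promoters. Over all genes, the 1660 promoters of genes that fell held CCAAT in 41.3% and the 2498 of genes that rose in 30.7%. AGATAA was found in 3 of 12 promoters of red cell membrane and globin genes, 3 of 10 of erythroid regulators and 4 of 11 of platelet genes, on either strand, against 5.71% of tested genes. A match of letters is a description and not a bound site.

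All 29 tested genes of mitosis and the spindle fell in P, with a median difference of -1.70 and a range of -1.97 to -1.16. The list holds 30 genes, of which 1 was under the level filter. In every library of P each of the 29 was below all 3 OVX libraries, as were 3048 of all 14200 genes (21.5%), and all 29 also fell without P 2. Cenpf had an FPKM of 4.97, 4.91 and 4.07 in P and of 21.5, 24.1 and 14.6 in OVX, a difference of -1.87 ± 0.21 (SE, adjusted p = 7.6e-05). Ccna2, the cyclin of S phase and entry into mitosis, had 21.8, 17.7 and 16.9 against 77.6, 72.8 and 58.9, a difference of -1.84 ± 0.20. Kif4a and Cenpe differed by -1.65 ± 0.18 and -1.69 ± 0.20. P 2, which stood apart in cartilage and muscle genes, lay beside P 1 and P 3 in each of these 4 genes.

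Of 33 tested entries for the 32 listed genes of DNA replication, 30 fell and 1 rose, with the same counts without P 2 and a median of -1.39. Pcna, the sliding clamp of DNA polymerases, had an FPKM of 94.4, 75 and 85.8 in P against 233, 218 and 225 in OVX, a difference of -1.40 ± 0.18 (adjusted p = 0.00014). The helicase subunit gene Mcm2 fell by 1.62 ± 0.20 (SE), the ribonucleotide reductase subunit gene Rrm2 had -1.82 ± 0.23, and Orc6, of the origin recognition complex, had -1.49 ± 0.19. Among 13 tested histone genes 6 fell and 1 rose, and without P 2 it was 8 and 1 (those that fell numbered 11 with only the 2 groups fitted and P 2 left out). H2ax, the variant phosphorylated at DNA breaks, had 35.1, 38.5 and 35.1 against 107, 122 and 82.9. Birc5, which codes for survivin, a protein needed for cell division, had 11, 9.96 and 8.66 against 39.7, 36.4 and 36.6, so that the groups did not overlap in either gene.

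Genes of red cells fell with them. Of 18 tested genes of globins and the red cell membrane 17 fell, with or without P 2, and the median was -2.60. Slc4a1, the anion exchanger of the red cell membrane, had an FPKM of 83.5, 201 and 101 in P and 822, 892 and 686 in OVX, a difference of -2.72 ± 0.57 (adjusted p = 0.0026). The spectrin gene Sptb had 12.7, 27.5 and 17.2 against 134, 121 and 109, a difference of -2.66 ± 0.39. P 2 was the highest of the P libraries in both genes, yet below every OVX library. The globin share of all FPKM was 0.66%, 1.66% and 1.06% in P and 8.25%, 7.59% and 6.22% in OVX. Globin genes have near-identical copies, so values of single copies such as Hba-a1 (-2.81 ± 0.67) and Hbb (-2.88 ± 0.63) are uncertain.

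The enzymes of heme synthesis showed the same direction. In the list of heme synthesis and iron genes, 15 of 20 fell and 1 rose, with or without P 2, and the median was -1.66. Alas2, the first and rate-limiting enzyme of heme synthesis in red cell precursors, had an FPKM of 95.3, 281 and 126 against 1072, 1132 and 781, a difference of -2.70 ± 0.60 (adjusted p = 0.0037). The later enzymes Cpox (-2.28 ± 0.28), Urod (-1.90 ± 0.28) and Uros (-1.78 ± 0.28) fell, as did Abcb10, a mitochondrial transporter needed for heme synthesis (-2.09 ± 0.28).

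Of 12 tested regulators of red cell formation 9 fell and none rose, with or without P 2, with a median of -2.18. All 12 were below OVX in every P library, as were 3048 of all 14200 genes (21.5%). Tal1, a transcription factor of blood precursors, had an FPKM of 22.6, 41.2 and 20.9 against 164, 145 and 109, and Nfe2, a factor of red cell and platelet genes, had 21.8, 36.5 and 24 against 128, 126 and 111. Zfpm1, the cofactor of GATA1 known as FOG1, differed by -1.79 ± 0.24, and Trim10, a gene of late red cell precursors, by -2.53 ± 0.43. Bpgm, which makes the 2,3-bisphosphoglycerate that lowers the oxygen affinity of hemoglobin, fell by 2.55 ± 0.26 (SE). Xpo7, a nuclear exporter active in late red cell precursors, had 29.8, 60.3 and 31.8 against 155, 201 and 138.

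Platelet genes fell in 16 of 17 cases, with or without P 2 (median -2.44). F5, coagulation factor V, had an FPKM of 9.49, 9.29 and 10.6 in P and 66.8, 45.2 and 42.4 in OVX, a difference of -2.26 ± 0.22 (adjusted p = 6.3e-05). The collagen receptor gene Gp6 had 5.54, 4.47 and 6.1 against 49.2, 32.6 and 33.3, and Mmrn1, which codes for a carrier of factor V in platelets, had 5.82, 9.17 and 5.44 against 58.1, 39 and 37.3. Gp1ba, part of the receptor for von Willebrand factor, differed by -2.35 ± 0.32, and the platelet chemokine gene Ppbp by -3.09 ± 0.64. The range over the 17 genes was -3.09 to -1.08.

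Of 18 neutrophil granule genes 16 fell (median -2.05), and 13 fell without P 2. Ctsg, a granule protease, had an FPKM of 77.2, 36.5 and 95 in P against 331, 358 and 277 in OVX, a difference of -2.29 ± 0.52 (adjusted p = 0.0041). Cebpe, the transcription factor of late granulocyte precursors, had 5.86, 2.65 and 11.5 against 26.4, 28.2 and 30.4. Ms4a3, a marker of granulocyte-monocyte precursors, had 19.1, 17.7 and 27.2 against 86, 86.5 and 88.5. P 2 was the lowest library in each of these 3 genes. Of 5 tested defensin genes, which have near-identical copies, 4 fell and 3 fell without P 2, with Defa5 at -2.49 ± 0.67. Genes of other lists fell too. The macrophage and neutrophil lysozyme gene Lyz2, of the monocyte and macrophage list, fell by 1.78 ± 0.30 (SE). Nkg7, a granule protein gene of cytotoxic cells in the T and NK cell list, had 27.2, 13 and 34.6 against 90.3, 94.9 and 80.2. Each had the lowest difference of its list, and the medians of these lists were above 0 (0.51 and 0.50).

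Calls were few among lymphocyte genes, and their number varied between fits. None of 20 B cell genes passed in limma, and 1 had an unadjusted p under 0.05 (median -0.37, range -0.95 to 1.11). Without P 2, 1 rose and the median was 0.23, and those that rose numbered 1 with array weights and 3 with only the 2 groups fitted and P 2 left out. The 4 B cell markers summed to 349.9, 96.4 and 366.2 FPKM in P and to 346.8, 367.1 and 255.3 in OVX, so that P 2 lay below the range of OVX and the other P libraries within it. Ebf1, an early B cell factor that stromal cells also express, had an FPKM of 39.5, 22.7 and 35.2 against 21.1, 23.1 and 18.8, a difference of 0.57 ± 0.22 (adjusted p = 0.055, and 0.0089 without P 2). Of 18 T and NK cell genes 2 fell and none rose, and 1 fell without P 2. The median of this list was nonetheless 0.50, and 0.84 without P 2, and the number that rose was 11 with array weights, 2 with only the 2 groups fitted and 13 with only the 2 groups fitted and P 2 left out. Among 7 plasma cell genes 3 rose, with or without P 2. The number was 1 without P 1 and 6 with only the 2 groups fitted and P 2 left out. Prdm1, the regulator of plasma cell fate that other cells also use, had 5.26, 3.09 and 6.76 against 0.807, 1.24 and 2.07, a difference of 1.33 ± 0.30.

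**Figure D2:**
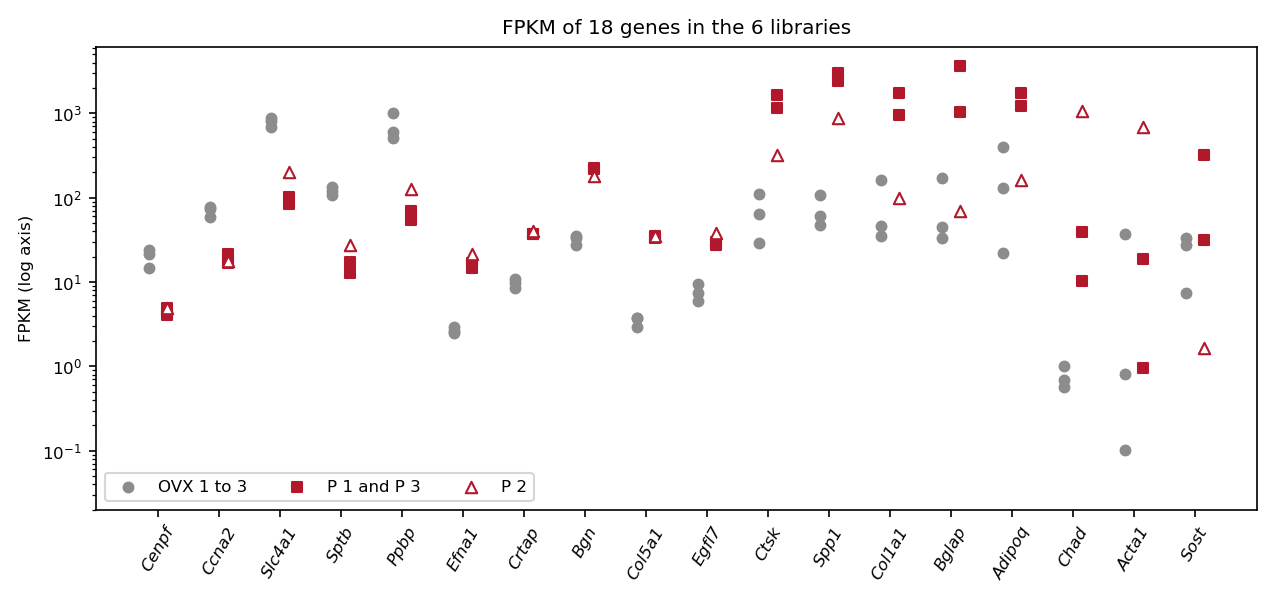
FPKM (log axis) of 18 genes in the OVX libraries (grey circles), P 1 and P 3 (red squares) and P 2 (open triangles). Cenpf to Egfl7 separate the groups in every library, while Adipoq, Acta1, Sost and Bglap overlap between them.

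Connective tissue genes were higher in P. All 17 genes of collagen processing rose (median 2.03, range 1.00 to 3.96), and 16 rose without P 2. Crtap, which codes for a partner of the prolyl hydroxylase that modifies collagen in the endoplasmic reticulum, had an FPKM of 37.2, 39.8 and 36.9 in P and 8.47, 9.71 and 11 in OVX, a difference of 1.87 ± 0.16 (adjusted p = 6.1e-05). Fkbp10, a collagen chaperone gene, had 32.9, 35 and 38 against 4.64, 4.58 and 5.87, and Pcolce, the enhancer of procollagen cleavage, had 85.8, 62.5 and 67.3 against 9.74, 11 and 16.8. Plod3, a lysyl hydroxylase gene, differed by 1.08 ± 0.15. The 3 P libraries lay close together in each of these genes.

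Of 43 collagen genes listed 33 were tested and 10 were under the filter. Of the tested genes 23 rose and none fell, with or without P 2 (median 2.38). Col5a1, which starts the assembly of collagen fibrils, had an FPKM of 33.5, 35.1 and 35.6 against 2.96, 3.71 and 3.76, a difference of 3.00 ± 0.33 (adjusted p = 7.4e-05). Its partner Col5a2 had 86.7, 82.9 and 64.3 against 10.6, 6.01 and 7.02, and Col6a2, of the pericellular microfibrils, had 49.1, 75.7 and 52.6 against 7.76, 11.5 and 13.1. Col16a1, a fibril-associated collagen gene, differed by 2.71 ± 0.33. In contrast, Col1a1, the main collagen of bone, spread widely in P (1763, 98.6 and 944), and P 2 lay inside the range of OVX (164, 45.6 and 35.3).

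All 10 tested small leucine-rich proteoglycan genes rose, 9 without P 2 (median 3.37), and 3 of the 14 listed were under the filter. Bgn, which codes for biglycan, a proteoglycan of bone and tendon matrix, had an FPKM of 216, 181 and 225 in P against 27.6, 32.9 and 35 in OVX, a difference of 2.67 ± 0.28 (adjusted p = 6.6e-05). Omd, the osteoblast proteoglycan osteomodulin, had 51.5, 40.6 and 30.7 against 3.71, 3.63 and 1.65. Prelp, an anchor between basement membrane and matrix, had 71.2, 270.2 and 77.9 against 1.87, 6.74 and 18.5, with P 2 above the other P libraries.

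Of 23 proteases of the matrix and their inhibitors 15 rose and 2 fell, and 16 and 2 without P 2. The gelatinase gene Mmp2 had an FPKM of 75.4, 37.6 and 44.3 in P and 4.09, 3.93 and 4.6 in OVX, a difference of 3.30 ± 0.53 (adjusted p = 0.0005). Timp1, an inhibitor of these proteases, had 94.3, 77.6 and 62.5 against 6.31, 7.57 and 9.48, and Timp2 had 22.2, 26.2 and 26.6 against 3.45, 5.43 and 5.54. Mmp19 differed by 1.31 ± 0.15. The neutrophil collagenase gene Mmp8 went the other way (-1.77 ± 0.35), and Mmp9, which osteoclasts and neutrophils both express, had 221, 70.1 and 212 against 84.6, 125 and 119 (adjusted p = 0.76), so that the groups overlapped.

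Of 10 genes of joint surface and tendon 8 rose, and 7 without P 2 (median 3.64). The secreted protease genes Htra1, with an FPKM of 57.1, 303 and 63.2 against 3.56, 5.88 and 5.83, and Htra3, with 21.2, 52.9 and 19.7 against 1.33, 2.25 and 3.57, rose, as did Thbs2, a matricellular protein gene (4.41 ± 1.05). P 2 was the highest library in all 3. Cartilage genes were above OVX in every P library for 9 of 11 tested, against 29.2% of all genes tested, and 4 rose (median 3.02). Their number was 1 without P 2, 1 without OVX 1, 1 without OVX 2 and 1 without OVX 3, and 8 with only the 2 groups fitted and P 2 left out, 7 with a pseudocount of 0.1, 2 with no filter and 2 by voom on recovered reads. The list averaged 1.94, 6.70 and 2.25 in mean log2(FPKM + 1) in P and 0.49 to 0.62 in OVX, so that P 2 was far above P 1 and P 3, which were themselves above OVX. Genes this low in OVX passed the level filter, a mean over the 6 libraries, through their P values. Lying above OVX is therefore no separate support for them. Chad, a cartilage matrix protein gene, had 10.2, 1073 and 39.6 against 0.685, 1.02 and 0.575, a difference of 5.49 ± 1.84. Its call was lost without P 2 (adjusted p = 0.12), without OVX 1 (0.075), without OVX 2 (0.068) and without OVX 3 (0.068). Comp, the oligomeric matrix protein of cartilage and tendon, had 10.9, 473 and 27.7 against 0.675, 1.19 and 0.502, and its call was lost without P 2 (adjusted p = 0.12), without OVX 1 (0.079), without OVX 2 (0.067) and without OVX 3 (0.073). Ecrg4, a secreted peptide gene, had 12.1, 1187 and 17.7 against 0.768, 0.779 and 0.177, and was not called without P 2 (adjusted p = 0.12), without OVX 1 (0.072), without OVX 2 (0.071) and without OVX 3 (0.077). None of 14 skeletal muscle genes passed in limma or had an unadjusted p under 0.05, and Acta1, the muscle actin, had 18.9, 695 and 0.968 against 0.102, 0.804 and 37.4.

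**Figure D3:**
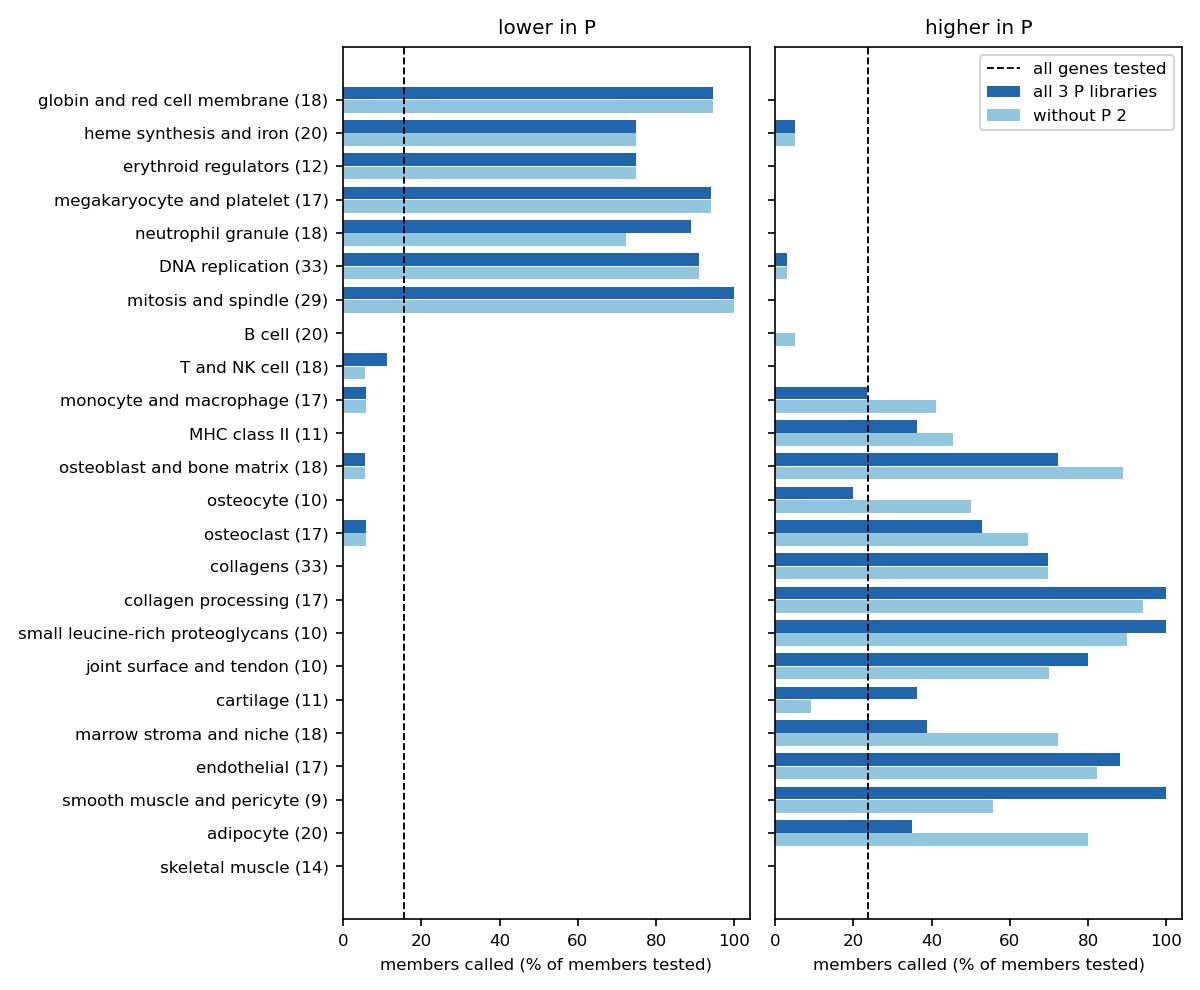
Members called lower (left) and higher (right) in P, as percent of the members tested, for 24 gene lists with all 3 P libraries (dark bars) and without P 2 (light bars). Dashed lines mark 15.5% and 23.8%, the shares over all 14200 genes tested, and adipocyte and cartilage are among the lists whose bars differ most.

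Bone-forming cells build the collagen matrix and mineralise it. Of 18 osteoblast and bone matrix genes 13 rose and 1 fell (median 2.21), and 16 and 1 without P 2. The count of genes that rose was 7 without P 1, 8 without P 3, 8 without OVX 2 and 8 without OVX 3. Sparc, a glycoprotein that binds collagen and mineral, had an FPKM of 1860.5, 727 and 1106 in P and 138, 135 and 192 in OVX, a difference of 2.89 ± 0.40 (adjusted p = 0.00021). Dlx5, an osteoblast transcription factor gene, had 21, 14.8 and 24.7 against 1.4, 4.27 and 7.21, and Pth1r, the receptor of parathyroid hormone, had 65, 46.3 and 81.1 against 6.93, 8.91 and 12.2. In these 3 genes all P libraries were above all OVX libraries. Sp7, which commits cells to the osteoblast fate, had 15.1, 6.11 and 21.1 against 1.55, 2.71 and 1.4, and the matrix protein gene Spp1 had 3042, 879 and 2427 against 48.1, 107 and 61.4.

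P 2 was the lowest P library in the bone genes Runx2, Ibsp, Col1a1, Bglap and Alpl. Runx2, the master regulator of osteoblasts, had an FPKM of 29.5, 9.94 and 23.3 against 5.74, 6.46 and 7.74, a difference of 1.40 ± 0.50 (adjusted p = 0.042). It lost its call without P 1 (adjusted p = 0.15), without P 3 (0.12), without OVX 1 (0.11), without OVX 2 (0.094) and without OVX 3 (0.064). Ibsp, bone sialoprotein, had 592, 195 and 724 against 68.3, 144 and 108, and lost its call without P 1 (adjusted p = 0.13), without P 3 (0.15), without OVX 1 (0.15), without OVX 2 (0.068) and without OVX 3 (0.089). Col1a1 differed by 3.07 ± 1.00 and lost its call without P 1 (adjusted p = 0.12), without P 3 (0.09), without OVX 2 (0.084) and without OVX 3 (0.09). Bglap, the osteocalcin gene, had 3620.5, 69.6 and 1047 against 173, 32.9 and 45.1, a difference of 3.32 ± 1.65 that did not pass (adjusted p = 0.13), but did without P 2 (4.91 ± 1.62, adjusted p = 0.03). Alpl, the alkaline phosphatase of mineralisation, had 40.6, 26.1 and 41.4 against 13.3, 12.7 and 10.1, which did not overlap and did not pass (adjusted p = 0.063). Phospho1, a phosphatase that supplies phosphate for mineral, was the gene of the list that fell, with 8.23, 9.14 and 8.54 against 15.6, 22.7 and 19.3.

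Osteocytes are osteoblasts buried in bone. Of 10 osteocyte genes 2 rose, a share below that of all genes tested, and 8 did not pass. The number that rose was 5 without P 2, 1 without P 3 and 1 without OVX 2, and 8 with array weights and 8 with only the 2 groups fitted and P 2 left out. The list averaged 4.27, 2.35 and 5.32 in mean log2(FPKM + 1) in P and 2.07 to 2.53 in OVX, so that P 2 lay among the OVX libraries. Sost, the secreted Wnt inhibitor of osteocytes, ranged from 1.66 to 317 in P (31.3, 1.66 and 317) and had 33.2, 27.5 and 7.32 in OVX. Its difference of 0.58 ± 2.26 turned negative without P 3 or without OVX 3. Dmp1, which regulates mineral around osteocytes, had an FPKM of 224, 23.9 and 395 against 31.5, 20.1 and 13.5, a difference of 2.60 ± 1.39 that did not pass (adjusted p = 0.16).

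Osteoclasts resorb bone. Of 17 osteoclast genes 9 rose and 1 fell (median 1.26), and 11 and 1 without P 2. The count of genes that rose was 2 without P 1, 4 without P 3, 2 without OVX 1 and 5 without OVX 2, and 14 with only the 2 groups fitted and P 2 left out. Tnfrsf11a, the receptor RANK that starts osteoclast formation, had an FPKM of 9.91, 6.04 and 10.3 in P and 0.271, 0.498 and 0.618 in OVX, a difference of 2.71 ± 0.43 (adjusted p = 0.00042). Nfatc1, the transcription factor that drives it, had 16.5, 13.9 and 19.3 against 5.23, 6.93 and 6.79. Both genes kept the groups apart in every library, and 29.2% of all genes tested had every P library above OVX. Tnfrsf11a, under 1 in OVX, passed the level filter through its P values, so the separation is no separate support for it. The protease gene Ctsk had 1669, 322 and 1166 against 29, 110.0 and 64.7, a difference of 3.83 ± 1.06 whose call was lost without P 1 (adjusted p = 0.051) and without OVX 1 (0.055). Acp5, the acid phosphatase of osteoclasts, had 454, 146 and 371 against 25.8, 52.1 and 38.9 and lost its call without P 1 (adjusted p = 0.11), without P 3 (0.099), without OVX 1 (0.12), without OVX 2 (0.066) and without OVX 3 (0.077).

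Among genes that regulate osteoclasts 7 of 11 tested rose and none fell, with or without P 2, and 2 of the 13 listed were under the filter. Il34, a ligand of the CSF1 receptor that osteoclast precursors need, had an FPKM of 17.2, 8.44 and 8.05 against 2.32, 2.03 and 1.69, a difference of 1.95 ± 0.31 (adjusted p = 0.0005). Lgr4, a receptor that binds RANKL and dampens its signal, had 9.7, 17 and 9.88 against 2.67, 2.55 and 2.69. Ephb4 and Efnb2, a receptor and a ligand that pass signals between osteoblasts and osteoclasts, differed by 1.67 ± 0.24 and 1.64 ± 0.38. Tnfrsf11b, the decoy receptor osteoprotegerin, had 11.5, 114 and 12.8 against 0.958, 0.581 and 0.351, with P 2 far above P 1 and P 3. Tnfsf11, the ligand RANKL, had 9.61, 2.37 and 8.31 against 1.55, 1.35 and 4.2, a difference of 1.14 ± 0.62 that did not pass (adjusted p = 0.16, and 0.053 without P 2).

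Marrow fat expands when estrogen is lost. None of 20 adipocyte genes was above all OVX libraries in every P library, against 29.2% of all genes tested. The list averaged 7.40, 4.86 and 6.91 in P and 3.52, 4.67 and 5.94 in OVX, so that P 2 lay between OVX 2 and OVX 3. Of the 20 genes 7 rose (median 1.65), and 16 without P 2, but the count was 0 without P 1, 2 without P 3, 0 without OVX 1, 1 without OVX 2 and 15 without OVX 3, and 20 with array weights, 0 with only the 2 groups fitted, 14 with only the 2 groups fitted and P 2 left out and 3 with no filter. Adipoq, the fat cell hormone adiponectin, had an FPKM of 1729.7, 162 and 1223 in P and 22.1, 130.2 and 398 in OVX, a difference of 2.72 ± 1.07 (adjusted p = 0.06, and 0.013 without P 2). Pparg, the regulator of fat cell formation, had 31.5, 11.2 and 37.5 against 5.75, 7.61 and 14.6, a difference of 1.36 ± 0.47, and lost its call without P 1 (adjusted p = 0.11), without P 3 (0.14), without OVX 1 (0.13) and without OVX 2 (0.097).

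Stromal cells of the marrow hold blood stem cells in place. Of 18 stromal genes 7 rose, and 13 without P 2 (4 without P 3 and 4 without OVX 1, and 13 with array weights and 13 with only the 2 groups fitted and P 2 left out). Pdgfra, a receptor of platelet-derived growth factor on stromal cells, had an FPKM of 20.8, 36.7 and 22.7 against 2.64, 2.93 and 3.87, a difference of 2.71 ± 0.39 (adjusted p = 0.00025). The second receptor gene, Pdgfrb, had 63.9, 50.5 and 64.5 against 7.38, 10.7 and 17.8, a difference of 2.30 ± 0.27. Cxcl12, the chemokine that retains blood stem cells, had 834, 224 and 802 against 182, 274 and 368, a difference of 1.01 ± 0.58 that did not pass (adjusted p = 0.19, and 0.029 without P 2). Its receptor gene Cxcr4, carried by blood cells, fell, with 75.7, 60.7 and 72.8 against 138, 137 and 159. Among 14 stem and progenitor cell genes 5 rose and 2 fell, and 6 and 1 without P 2. Meis1 fell by 1.33 ± 0.27 (SE), while Hoxa9, Hlf and Cd34 rose (2.44 ± 0.33, 1.56 ± 0.29 and 2.03 ± 0.51), of which Cd34 is also a vessel marker.

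Vessels supply the marrow, and their genes were higher. Of 17 endothelial genes 15 rose, and 14 without P 2 (median 1.63). Sox18, a transcription factor gene of vessels, had an FPKM of 16.3, 24.9 and 20.9 in P and 3.83, 4.31 and 2.33 in OVX, a difference of 2.28 ± 0.25 (adjusted p = 7.7e-05). Egfl7, a secreted vessel factor gene, had 29.7, 38.5 and 27.8 against 5.97, 7.49 and 9.57, and Plvap, of the fenestrated endothelium, had 31, 57.2 and 39.2 against 4.73, 8.76 and 7.09. P 2 resembled P 1 and P 3 in the endothelial markers, which summed to 135.1, 168.1 and 150.4 in P and 29.4 to 41.5 in OVX. All 9 genes of smooth muscle and pericytes rose, but 5 without P 2 (5 without P 3 and 4 without OVX 1, and 5 with only the 2 groups fitted and 5 with only the 2 groups fitted and P 2 left out). Cspg4, the pericyte proteoglycan NG2, had 9.09, 18.9 and 12 against 0.977, 1.17 and 3.53. Of 20 signals of vessel growth and semaphorins 16 rose and none fell, and 18 without P 2. Pdgfa had 13, 15.4 and 11.6 against 1.11, 1.73 and 1.83, a difference of 2.49 ± 0.21 (adjusted p = 6.1e-05), and Pgf, placental growth factor, had 2.14 ± 0.30.

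Efna1, a membrane ligand of Eph receptors that is active in vessels, had the smallest adjusted p of the named genes. Its FPKM was 16.9, 21.8 and 14.8 in P and 2.91, 2.5 and 2.65 in OVX, a difference of 2.34 ± 0.15 (adjusted p = 1.2e-05). Other genes of smallest p in the higher direction without P 2 were Cisd3, an iron-sulfur protein of mitochondria (1.56 ± 0.13 with all P libraries), Pcbp4, an RNA-binding protein (1.71 ± 0.16), and Plcg1, a phospholipase that relays receptor signals (1.49 ± 0.15). Bsdc1, Dnaja4 and Hagh, the latter coding for a hydrolase of the glyoxalase pathway, were among those in the lower direction (-1.58 ± 0.18, -1.66 ± 0.20 and -1.90 ± 0.21). In each of these 7 genes the P and OVX libraries did not overlap, which their choice by small p favours.

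**Figure D4:**
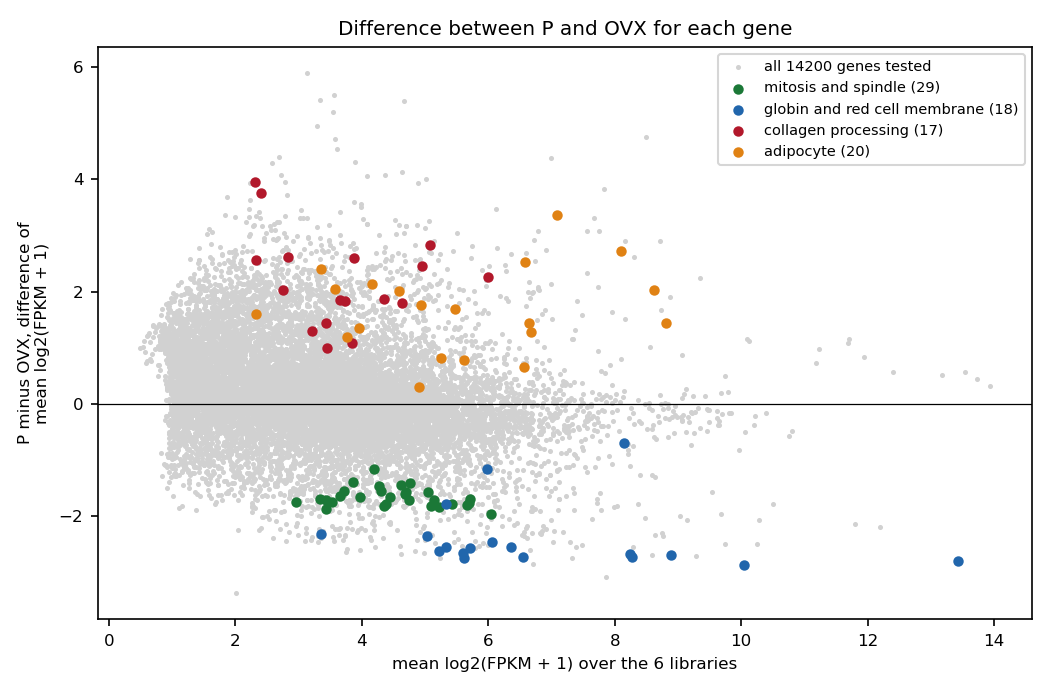
Difference between P and OVX (vertical axis, mean log2(FPKM + 1)) against the mean level over the 6 libraries for 14200 genes (grey), with 4 gene lists in colour. The 29 mitosis genes lie in a narrow band between -1.97 and -1.16, and adipocyte genes spread from 0.30 to 3.37.

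Several signalling pathways direct the growth of bone and vessels. Of 35 tested genes of BMP and TGF-beta signalling 26 rose and 1 fell, and 29 and none without P 2 (median 1.46). Among the receptors, Acvr1, which binds BMPs, had an FPKM of 13.8, 11.9 and 16.4 in P and 1.71, 3.35 and 5.72 in OVX, a difference of 1.80 ± 0.26 (adjusted p = 0.00023), and Acvrl1, the vessel receptor ALK1, had 16.9, 24.1 and 17.5 against 4.04, 5.07 and 6.55. Ltbp3, which holds latent TGF-beta in the matrix, had 34.4, 45.8 and 36.2 against 3.51, 4.57 and 6.62. Nog, the secreted BMP antagonist noggin, had 5.13, 2.63 and 4.76 against 0.257, 0.66 and 0.284. The groups did not overlap in these 4 genes, and 29.2% of all genes tested had every P library above OVX. Nog, under 1 in OVX, passed the level filter through its P values, so lying above OVX is no separate support for it.

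Of 36 Wnt genes listed, 29 were tested, 13 rose, 16 did not pass and none fell, and 16 rose without P 2 (median 1.12). The number that rose was 23 with array weights and 22 with only the 2 groups fitted and P 2 left out. Tcf7l2, a transcription factor of the pathway, had an FPKM of 15.1, 10.8 and 14.5 against 3.56, 3.35 and 6.52, a difference of 1.43 ± 0.23 (adjusted p = 0.00048). Axin2, a feedback target, had 4.68, 4.11 and 4.06 against 1.49, 1.73 and 1.39, and the secreted inhibitor gene Wif1 had 40.7, 88.4 and 35.1 against 5.11, 4.5 and 4.1. In Axin2 the libraries of each group were close together.

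Hedgehog and parathyroid hormone-related signals guide cartilage and bone growth. Of 9 tested genes 8 rose, with or without P 2 (median 2.13), and 6 of those listed were under the filter. Smo, the signal transducer of the pathway, had an FPKM of 10.2, 13.9 and 13.3 in P and 1.57, 1.91 and 2.5 in OVX, a difference of 2.17 ± 0.23 (adjusted p = 6.8e-05). Gli2, its transcription factor, had 3.46, 7.27 and 4.82 against 0.463, 0.474 and 0.794, and the coreceptor gene Cdon had 6.38, 22.5 and 7.15 against 0.656, 1.33 and 2.01. Of 12 tested genes of fibroblast growth factors 11 rose, and 12 without P 2. The receptor gene Fgfr1 had 74.5, 51.6 and 103 against 8.84, 10.2 and 16.3. Fgfr2 had 34.7, 47.6 and 47.5 against 4.28, 8.53 and 9.39, and Fgfr3 had 27.7, 16.5 and 30.5 against 1.67, 5.22 and 6.69. None of these receptors overlapped between the groups, and Fgfr4 was under the filter. Dusp6, a feedback phosphatase of the same signal, differed by 1.33 ± 0.29.

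Of 17 Notch genes 10 rose and none fell, and 12 without P 2. The ligand gene Jag1 had an FPKM of 9.38, 15 and 13 against 1.84, 1.95 and 4.01, a difference of 1.93 ± 0.24 (adjusted p = 0.00011). The receptor gene Notch4, active in vessels, had 8.69, 10.4 and 9.43 against 2.67, 1.75 and 3.36, and the targets Hes1 and Hey1 differed by 2.14 ± 0.34 and 1.57 ± 0.20. Of 15 genes of insulin-like growth factors 8 rose, and 9 without P 2. Igf2 had 15.8, 9.42 and 8.02 against 1.71, 4.9 and 2.44, the adaptor gene Irs1 had 6.55, 4.2 and 7.13 against 0.667, 1.43 and 1.98, and the binding protein gene Igfbp7 had 435, 355 and 482 against 39.1, 84.6 and 170.0. Both lists had every called member in the higher direction.

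Estrogen-responsive genes matter here since both groups lacked ovaries. Of 14 tested genes of this list 9 rose and none fell, and 10 without P 2 (median 1.00), and 5 were under the filter. Esr1, the main estrogen receptor, was among the latter, with 1.32, 0.727 and 2.04 in P and 0.133, 0.303 and 0.638 in OVX. These did not overlap, and in the fit without a filter the difference was 0.78 ± 0.35 (SE, adjusted p = 0.14). Esr2 was listed at 0 in all OVX libraries and in P 1 and P 3. Gper1, a membrane estrogen receptor, had an FPKM of 1.64, 2.65 and 2.31 against 0.298, 0.588 and 0.725, a difference of 1.06 ± 0.17 (adjusted p = 0.00044). Ccnd1, the cyclin of G1 and an estrogen-responsive gene, had 15.2, 19.9 and 17 against 2.61, 3.11 and 3.79, and so rose while the cyclin of mitosis Ccna2 fell. The growth factor gene Tgfa differed by 1.05 ± 0.22.

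Of 10 tested genes that respond to androgen, vitamin D or glucocorticoid 7 rose, and 6 without P 2 (3 without OVX 1 and 3 without OVX 2). Tsc22d3, the glucocorticoid-induced leucine zipper, had an FPKM of 117, 75.1 and 122 against 29.98, 19.7 and 40.1, a difference of 1.79 ± 0.39 (adjusted p = 0.0034). Klf9 had 20.2, 22.1 and 27.6 against 3.16, 3.48 and 4.68, and Zbtb16 had 19.2, 14.6 and 26.3 against 2.57, 1.25 and 3.14. All are targets of the glucocorticoid receptor in other tissues.

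Some plant compounds bind the aryl hydrocarbon receptor or activate NRF2, the regulator of antioxidant genes. Of 17 tested genes of these systems 5 rose and 5 fell, and 6 and 5 without P 2, and those that rose numbered 8 with array weights. Among all genes tested 23.8% rose and 15.5% fell. Cyp1b1, a target of the aryl hydrocarbon receptor, had an FPKM of 18.6, 11.1 and 19.7 in P and 3.6, 4.29 and 7.44 in OVX, a difference of 1.53 ± 0.34 (adjusted p = 0.0034), and the receptor gene Ahr had 9.32, 8.63 and 6.78 against 3.26, 3.27 and 4.5. Cyp1a1, the most used target, was under the filter, with 3.81 in P 2, 0.0197 and 0.0147 in P 1 and P 3, and 0.262 in OVX 1 and 0 in the other OVX libraries. Among the NRF2 targets are Gclm and Gclc, the subunits of the enzyme that limits glutathione synthesis. Gclm had 21, 29.2 and 23.5 against 90.0, 105 and 75.9 and fell by 1.84 ± 0.17 (SE), and Gclc had 21.9, 33.1 and 22.2 against 70.4, 84.5 and 63.5 and fell by 1.48 ± 0.19. Srxn1, sulfiredoxin, differed by -1.62 ± 0.32. Nqo1 had 6.64, 7.91 and 6.11 against 5.28, 7.16 and 5.74 and Hmox1, which breaks down heme, had 44.1, 39 and 66.6 against 177, 88.6 and 90.0, and neither passed (adjusted p = 0.55 and 0.064).

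Of 19 antioxidant enzyme genes 8 fell and 4 rose, and 9 and 4 without P 2. Prdx2, the peroxiredoxin most abundant in red cells, had an FPKM of 139, 276 and 141 against 805, 755 and 624, a difference of -2.04 ± 0.30 (adjusted p = 0.00029). Gpx1, glutathione peroxidase, had 413, 524 and 369 against 1418, 1374 and 1097, and the mitochondrial peroxiredoxin gene Prdx3 had 58.3, 59.2 and 53.8 against 156, 125 and 114. Sod1, cytosolic superoxide dismutase, had a smaller difference of -0.68 ± 0.12. Red cell genes fell beside them, as described above, and their part in these values was not tested.

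Inflammatory genes were mixed, and of all genes tested 23.8% rose and 15.5% fell. Of 17 interferon response genes 7 rose and 1 fell, and 11 and 2 without P 2 (the count of genes that rose was 3 without P 1, 3 without P 3, 3 without OVX 1, 4 without OVX 2 and 4 without OVX 3, and 11 with array weights, 4 with only the 2 groups fitted, 12 with only the 2 groups fitted and P 2 left out and 4 with no filter). Ifi44 had an FPKM of 33.2, 23.2 and 26.4 in P and 8.49, 7.07 and 9.78 in OVX, and Gbp2, a guanylate-binding protein gene, had 24.7, 17 and 22.8 against 11.7, 11.3 and 11.6. Rsad2, the antiviral enzyme viperin, went the other way, with 21.6, 25.9 and 25.9 against 117, 218 and 111, a difference of -2.49 ± 0.40 (adjusted p = 0.0005). Of 29 tested chemokine and receptor genes 10 rose and 5 fell, with or without P 2 (those that fell numbered 3 without P 1 and 3 without OVX 1, and those that rose 16 with array weights). Cxcl16 had 18.8, 13.8 and 15 against 1.99, 2.9 and 2.62, a difference of 2.27 ± 0.21, and Cxcl9 and Cxcl10, attractants of T cells, had 2.13 ± 0.48 and 1.85 ± 0.33. Of 16 cytokine genes 5 rose and 2 fell, and 6 and 2 without P 2 (those that rose numbered 3 without OVX 1 and 3 without OVX 2, and 3 with only the 2 groups fitted). Socs3, a feedback inhibitor of cytokine signals, had 18, 14 and 24.5 against 2.18, 2.93 and 4.51, and Il1a had 0.446, 0.324 and 0.35 against 1.46, 1.87 and 3.17, so that Il1a was lower in every P library.

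Of 17 monocyte and macrophage genes 4 rose and 1 fell, near the share of all genes, and 7 and 1 without P 2 (those that rose numbered 2 without P 3, 2 without OVX 1 and 2 without OVX 2, and 9 with array weights, 2 with only the 2 groups fitted, 8 with only the 2 groups fitted and P 2 left out and 2 with no filter). Mertk, a receptor for dying cells, had an FPKM of 9.03, 6.34 and 15.5 against 2.83, 2.53 and 4.92, a difference of 1.31 ± 0.26 (adjusted p = 0.0018). Csf1r, the CSF1 receptor, had 75.8, 21.5 and 82.7 against 17.7, 18.4 and 16.7 and lost its call without P 1 (adjusted p = 0.13), without P 3 (0.14), without OVX 1 (0.083), without OVX 2 (0.077) and without OVX 3 (0.08). Of 11 MHC class II genes, which present antigens, 4 rose and 5 without P 2 (median 1.51). Of the 11, 7 lay above all OVX libraries in every P library, against 29.2% of all genes tested. The number that rose was 0 without P 1, 0 without P 3, 0 without OVX 1, 0 without OVX 2 and 1 without OVX 3, but 8 with array weights, 7 with only the 2 groups fitted, 9 with only the 2 groups fitted and P 2 left out and 1 with no filter. Cd74, the chain that guides class II molecules, had 487, 220.3 and 766 against 129, 135 and 157, a difference of 1.63 ± 0.57, and lost its call without P 1 (adjusted p = 0.097), without P 3 (0.15), without OVX 1 (0.1), without OVX 2 (0.091) and without OVX 3 (0.066).

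The P libraries were also set beside the other extract groups, J and PJ, which share the 15-library fit. In P against J 643 genes were higher (4.53%) and 452 lower (3.18%) of 14200, together 7.71%, and 4058 genes had an unadjusted p under 0.05. By voom on recovered reads 825 were called. With only these 6 libraries limma called 0, and 3333 had an unadjusted p under 0.05. The counts without single libraries were 0 without P 1, 869 without P 2, 0 without P 3, 0 without J 1, 358 without J 2 and 0 without J 3, with 3133 to 4212 genes at an unadjusted p under 0.05 in these 6 fits. Of the 29 mitosis genes 21 were lower in P than in J and none was higher, with a median difference of -0.91, and of 33 DNA replication genes 9 were lower. Cenpk, a kinetochore gene, had an FPKM of 3.94, 4.66 and 3.00 in P, 9.23, 7.64 and 8.76 in J and 16.3, 13.8 and 14.7 in OVX. Efna1 had 16.9, 21.8 and 14.8 in P, 8.35, 8.92 and 9.55 in J and 2.91, 2.5 and 2.65 in OVX, and P minus J was 0.91 ± 0.15 (SE, adjusted p = 0.036). Parp3, a DNA repair gene, and Zc2hc1a were also among the 5 genes of smallest p that were higher in P (1.34 ± 0.19 and 1.08 ± 0.17). Bcl2l1, a survival gene that red cell precursors depend on, had 9.19, 11.5 and 10.3 in P, 19.3, 19.4 and 19.9 in J and 26.4, 32.4 and 21.4 in OVX.

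In P against PJ no gene was called by limma at the threshold (0 of 14200), nor with only these 6 libraries, nor by voom on recovered reads. At an unadjusted p under 0.05 there were 284, 147 and 300 genes in these 3 fits, and array weights called 4. For Efna1 the values were 16.9, 21.8 and 14.8 in P and 14.4, 17 and 15.5 in PJ, a difference of 0.17 (unadjusted 95% interval -0.15 to 0.48). For Ccna2 the difference was 0.25 (-0.19 to 0.68), for Slc4a1 1.70 (0.46 to 2.94), for Crtap 0.11 (-0.24 to 0.46) and for Adipoq -0.98 (-3.30 to 1.33). The intervals of Slc4a1 and Adipoq span several-fold differences, so that these genes are not shown to be alike in P and PJ. Unlike that of Adipoq, the interval of Slc4a1 lay above 0. All 18 genes of globins and the red cell membrane were higher in P than in PJ (median 1.47, range 0.08 to 1.97), with 0 called. P and J rats received different extracts at different doses, and PJ rats received both extracts together.

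**Figure D5:**
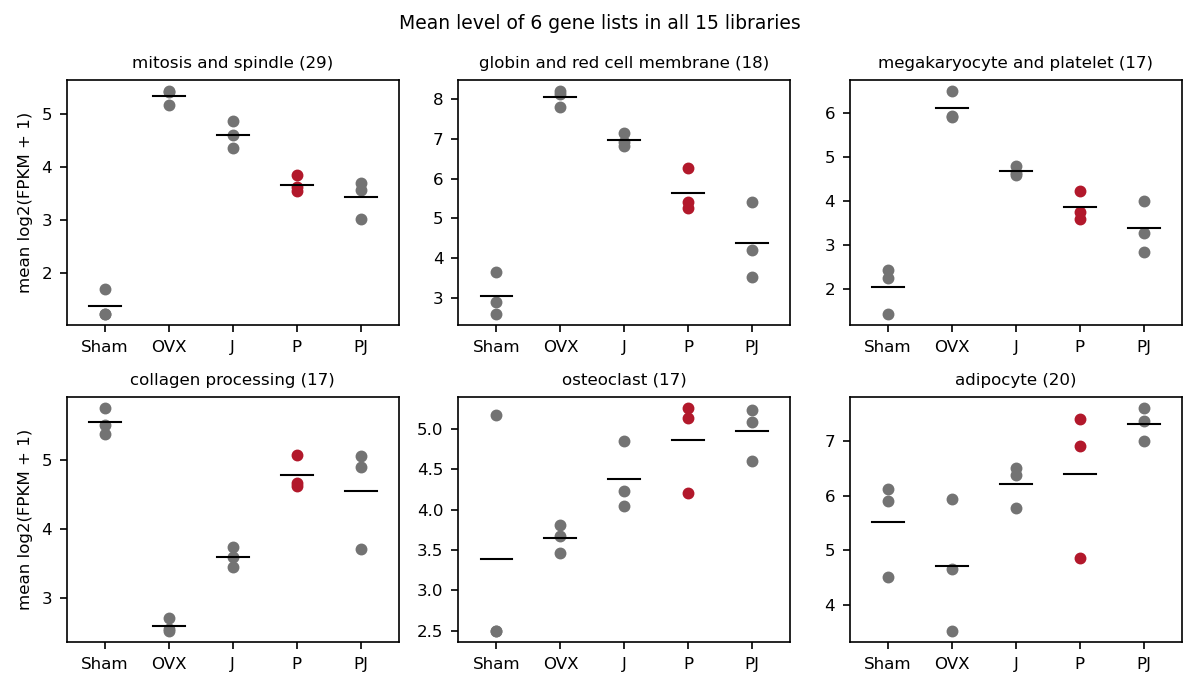
Mean log2(FPKM + 1) over the tested members of 6 gene lists in all 15 libraries (points, P in red) with the group mean (line). The mitosis list lies at 3.84, 3.54 and 3.62 in P, below OVX at 5.41, 5.42 and 5.16, and the adipocyte list spreads from 4.86 to 7.40 in P.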

How the data were processed

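RNA sequencing of rat femurs covered 15 libraries, 3 in each of 5 groups given by the titles. The authors deposited 1 FPKM value per gene in a column headed as count, and the column headed FPKM was empty in all files. Build mRatBN7.2 and fastp 0.23.4, STAR 2.7.11a and featureCounts 2.0.6 are named, per the submitters' processing notes. Whether counting used strand is not stated in the labels. Depth was inferred from the steps between values, and the recovered reads cover at least 99.99% of the FPKM of each library. Depth was 34.3 to 61.0 in units of 1000000 reads over all libraries, which may be read ends. Promoter sequences are RefSeq's, from assembly GRCr8.

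Values were analysed as log2(FPKM + 1), which understates the change of genes with low values. A model of 5 group means over 15 libraries (10 residual degrees of freedom) was fitted in R 4.3.3 by limma 3.58.1, with variances that follow the mean level. Tests were two-sided and adjusted by Benjamini-Hochberg over 14200 genes, those whose mean FPKM was 1 or more over the 6 libraries of P and OVX. The limma script was tested on simulated data.

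The members and the 56 gene lists (1134 genes, 1097 matched by name, 1001 tested) were chosen with earlier results of these data known. Named genes were the 12 highest and 12 lowest differences among called genes whose groups did not overlap, up to 4 genes of smallest p in each list, 27 genes fixed by name, and the genes of smallest p without P 2 (6 in each direction) and in P against J (5 in each direction). From these the text takes those that describe each group, some genes are not reported here, and Esr1, Esr2 and Cyp1a1 were under the filter. Alternatives were another pseudocount, other filters, 2 scalings, removal of mitochondrial and globin genes, a block for the replicate number, array weights, a fit of the 2 groups alone and each library left out. Added after the data were seen were voom on recovered reads and the fit without P 2 of only the groups compared.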

Additional observations from a re-analysis of the deposited data

How the results depend on the processing

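Over the 273 genes followed, 4332 of 4594 values under the alternatives kept their direction and their side of the threshold, 201 lost the call and 59 gained it. Of the 244 genes called in P against OVX none changed direction under these alternatives. Most of the genes followed were chosen by small p or large difference in these data, which favours such stability. Sost, which was not called (0.58), turned to -1.12 without P 3 and to -0.05 without OVX 3, and leaving out single libraries gave -1.12 to 2.33. The count of genes that rose in P (3385) was 2063 with a mean FPKM of at least 5, where fewer genes were tested, and 5107 with array weights. Leaving out 1 library of P or OVX gave 2464 to 3856 genes that rose and 1662 to 2013 that fell. With only the 2 groups compared in the fit, 2830 rose and 1981 fell. With voom on recovered reads, chosen after the data were seen, 3264 rose and 2139 fell. Without P 2 in a fit of only the 2 groups, also chosen then, 4462 rose and 2280 fell. Array weights called 4 genes in P against PJ. In P against J (1095 called) the count was 527 with a pseudocount of 0.1, 0 with no filter, 387 after rescaling to TPM, 4217 with array weights, 0 with only the 2 groups compared and 0 to 869 without single libraries. The cause of these differences was not tested.

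Replicate numbers are shared between the titles of the groups. The deviations of same-numbered OVX and P libraries from their group means had correlations of -0.18 to -0.04. For Sham and P they ranged from -0.41 to 0.49. Whether these numbers pair the libraries cannot be told from 3 libraries per group. With the replicate number as a block 3352 genes rose and 2238 fell in P against OVX, 0 were called in P against PJ (338 at an unadjusted p under 0.05) and 950 in P against J. A floor of 3 reads corresponds to 0.0578 to 0.0778 reads per 1000000 in the 6 libraries, which covers counting error only.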

Other observations

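Counts were mixed among genes of protein synthesis, energy and stress, and of all genes tested 23.8% rose and 15.5% fell. Of 73 cytoplasmic ribosomal protein genes 6 fell and none rose (median -0.25), but 18 fell without P 2, and the count was 3 without P 1, 1 without P 3, 0 without OVX 1 and 2 without OVX 3, and 33 with array weights, 2 with only the 2 groups fitted, 23 with only the 2 groups fitted and P 2 left out and 14 with median-ratio scaling. Of 43 nuclear genes of oxidative phosphorylation 10 fell and 1 rose, and 8 and 1 without P 2, and those that fell numbered 6 without P 3, 6 without OVX 1 and 5 without OVX 3, and 6 after rescaling to TPM. Cox5b, a subunit of cytochrome c oxidase, had an FPKM of 31.4, 37.8 and 37.2 in P and 60.3, 55.3 and 63.6 in OVX, a difference of -0.74 ± 0.13 (SE, adjusted p = 0.00076 in limma). None of the 13 mitochondrially encoded genes passed in limma, and 5 had an unadjusted p under 0.05. Those that rose numbered 5 without P 3 and 1 without OVX 3, and 3 after rescaling to TPM, 1 by voom on recovered reads and 1 with the replicate block. Mt-nd2, a subunit of complex I, had 4060.3, 10679 and 2865 against 1888, 2109 and 2872, with P 2 far above the other 5 libraries. Of 26 genes of glycolysis and the response to low oxygen 8 rose and 5 fell, and 8 and 9 without P 2, and those that rose numbered 4 without OVX 1 and 5 without OVX 2, and 5 with only the 2 groups fitted. Those that fell numbered 10 with array weights, 10 with only the 2 groups fitted and P 2 left out and 3 after rescaling to TPM. Epas1, the oxygen-sensing factor HIF-2 alpha that is also strong in vessels, had 60.2, 64 and 68.5 against 6.85, 15.1 and 17.3, Ndrg1 rose (1.74 ± 0.25), and Hk1, the hexokinase of red cells and many other tissues, had 13.8, 18.8 and 18.1 against 40.7, 40.1 and 38.6.

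Of 24 lysosome genes 7 rose and 1 fell, and 9 and 1 without P 2, and those that rose numbered 14 with array weights and 16 with only the 2 groups fitted and P 2 left out, with Ctsl, a lysosomal protease gene, at 109, 140.2 and 152 in P against 19, 32.6 and 35.4 in OVX. Of 18 autophagy genes 6 fell and 3 rose, and 5 and 2 without P 2. Bnip3l, the receptor that clears mitochondria from maturing red cells, fell, with an FPKM of 50.9, 54.3 and 44.7 against 136, 145 and 99.4, while Gabarapl1 and Map1lc3a, of the autophagosome membrane, rose (1.36 ± 0.21 and 1.00 ± 0.15). Of 19 genes of apoptosis 2 rose and 3 fell, and 3 and 3 without P 2. Those that rose numbered 1 without P 1, 1 without P 3 and 1 without OVX 3, and 4 with array weights, and those that fell numbered 7 with median-ratio scaling. Bcl2, a survival gene, had 4.43, 6.39 and 5.97 against 1.83, 1.73 and 1.99, in the opposite direction to its relative Bcl2l1 (-1.28 ± 0.15). Of 15 genes of mast cells, basophils and eosinophils 4 fell, and without P 2 it was 3 that fell and 3 that rose, and those that fell numbered 2 without OVX 1, 2 without OVX 2 and 2 without OVX 3, and 2 with no filter, and those that rose 4 with array weights and 4 with only the 2 groups fitted and P 2 left out. Ms4a2, the beta chain of the IgE receptor, had 13.1, 6.25 and 10.1 against 46.7, 40.1 and 48.5. In Schwann cell genes 2 of 7 rose and 1 fell, near the shares of all genes tested, with Pmp22 at 2.66 ± 0.37 and Prx at 1.02 ± 0.23.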
